A study of Mus musculus with 20 samples.

Results

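Transforming growth factor beta (TGF-beta) signalling was followed through 7 genes in single leukocytes of the mouse eye: the ligand Tgfb1, the receptors Tgfbr1 and Tgfbr2, the signal transducer Smad3, and the inhibitors Smad7, Ski and Skil. They were chosen as named members of the pathway, with earlier results of these data known. They make up 7 of the 17782 genes that could be named in both of the authors' tables of annotated cells. The data are plate-based mCEL-Seq2 profiles, in which each well of a plate holds 1 sorted cell and each transcript molecule carries a barcode. CD45+ leukocytes were sorted after staining for CD45 and CD11b, and 20 libraries of 192 wells fell into 5 groups of 4. All mice were C57BL/6 and 8 weeks old, and no transgene or deletion is named in the labels. The groups were unlesioned retina (control), retina on day 3 and on day 7 after a laser lesion (labelled CNV), cornea, and ciliary body. The series description speaks of ca. 6 mice from 3 independent experiments without tying libraries to mice, and in each group 2 libraries share the first part of their title, P1 to P5. Those 2 libraries were summed as a pair, so each group has 2 values per cell class, except 1 for the joint class of monocytes, lymphocytes and granulocytes in cornea, and p-values measure the spread between these pairs, which may be technical.

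TGF-beta1 is secreted in a latent form and, once released, binds the type II receptor Tgfbr2, which then activates the type I receptor Tgfbr1. Tgfbr1 phosphorylates Smad2 and Smad3, which enter the nucleus with Smad4 and act on target genes, while Smad7 blocks the receptor complex and Ski and its paralog Skil (SnoN) repress Smad-bound genes. Microglia, the resident macrophages of brain and retina, are known to need TGF-beta signalling to keep their resting gene programme, including P2ry12, Tmem119 and Sall1.

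The promoters of the receptors and of Smad3 are shown because these 3 genes were lower in other cells or after the lesion in the comparisons that follow. Each stretch runs from 250 bases before to 50 bases after a start site in RefSeq, build GRCm38.p6, and is written 5′ to 3′ on the gene's own strand. Tgfbr1 has 2 RefSeq starts on the plus strand of chromosome 4, at chr4:47352972-47353271 and chr4:47385966-47386265. Tgfbr2 lies on the minus strand at chr9:116175314-116175613 and Smad3 on the minus strand at chr9:63757945-63758244. Capitals mark the letters CAGAC, the core of the CAGA box that Smad3 and Smad4 bind.
Tgfbr1, first start: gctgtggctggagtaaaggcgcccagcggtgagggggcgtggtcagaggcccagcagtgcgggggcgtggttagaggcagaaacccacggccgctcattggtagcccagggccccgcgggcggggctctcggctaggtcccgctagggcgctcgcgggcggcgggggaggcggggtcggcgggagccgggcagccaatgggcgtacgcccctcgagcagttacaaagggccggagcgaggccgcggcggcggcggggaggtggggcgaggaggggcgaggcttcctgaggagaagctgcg
Tgfbr1, second start: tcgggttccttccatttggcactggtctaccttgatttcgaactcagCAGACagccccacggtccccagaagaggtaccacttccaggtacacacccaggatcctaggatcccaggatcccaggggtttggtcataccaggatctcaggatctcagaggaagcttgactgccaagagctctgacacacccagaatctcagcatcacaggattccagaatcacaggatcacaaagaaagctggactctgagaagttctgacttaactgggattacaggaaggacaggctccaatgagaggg
Tgfbr2: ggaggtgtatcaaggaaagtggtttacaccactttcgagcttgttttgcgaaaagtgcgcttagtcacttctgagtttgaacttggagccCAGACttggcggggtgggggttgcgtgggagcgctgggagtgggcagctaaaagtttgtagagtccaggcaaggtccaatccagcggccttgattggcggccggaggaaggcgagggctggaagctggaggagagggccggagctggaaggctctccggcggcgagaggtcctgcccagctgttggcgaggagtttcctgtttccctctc
Smad3: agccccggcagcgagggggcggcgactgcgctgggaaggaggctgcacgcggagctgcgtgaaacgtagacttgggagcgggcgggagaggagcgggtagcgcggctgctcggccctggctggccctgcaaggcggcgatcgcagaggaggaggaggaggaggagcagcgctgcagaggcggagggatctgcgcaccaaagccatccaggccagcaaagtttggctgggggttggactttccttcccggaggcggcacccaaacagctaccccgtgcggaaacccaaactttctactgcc
CAGAC was found once in the Tgfbr2 stretch, once in the stretch of the second Tgfbr1 start, and not in those of the first Tgfbr1 start or of Smad3. On both strands together it occurred in 49.6% of all 32851 promoters of this length, so its presence sets none of these apart. GTCTAGAC, the palindrome of 2 Smad sites (0.213% of promoters), GAGGAAGT, a core bound by PU.1 (3.20%), and TGANTCA, bound by AP-1 (7.81%), were found in none of the 4 stretches. The GC box GGGCGG (35.7% of promoters) occurred 2 times at the first Tgfbr1 start and 2 times in Smad3. The first Tgfbr1 start (74.7% G or C) and Smad3 (67.7%) were richer in G and C than the median promoter (52.7%), and the second Tgfbr1 start (52%) was near it. RefSeq promoter entries for Smad7 and Skil were not used here.

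The authors' annotation held 829 wells, of which 120 were control microglia (32 in pair P1 and 88 in pair P2), 81 were microglia of day 3 (30 and 51) and 63 and 50 were microglia of day 7. The eye compartments gave 33 and 86 control microglia in a second table, 121 corneal macrophages and 111 ciliary body macrophages, and 111 microglial wells stood in both tables. Library totals ran from 371329 to 3325830 transcripts, and the microglial pairs had medians of 1531 to 2742 transcripts a cell. The label microglia held against its markers: the 10 microglial markers summed to 27615 and 30447 transcripts per 1000000 (CPM) in the 2 control pairs, 18310 and 21380 at day 3 and 22869 and 21802 at day 7, against 2388 and 1899 in corneal and 3009 and 3288 in ciliary body macrophages. All 10 were detected in each microglial pair, and against control 7 were called lower and 1 higher at day 3, and 4 lower and 0 higher at day 7. Photoreceptor transcripts moved between the retinal groups, at 4275 and 6982 CPM in control microglia, 1882 and 3054 at day 3, and 7686 and 9261 at day 7, with all 10 of their markers detected. The list for Müller glia and astrocytes holds 7 genes, Apoe among them. It summed to 1823 and 2510 CPM in control, 1170 and 4600 on day 3, and 10916 and 12171 on day 7. Glul, also of this list, gave 320 and 628 CPM on day 3 and 970 and 885 on day 7, so most of these sums lay in other genes. Rlbp1, Glul and Slc1a3 were called higher at day 7 than at day 3, which makes 3 of the 5 genes tested. Over all genes, 4.49% were higher. Against control, Glul was called lower on day 3, and 0 of the 5 were called on day 7. Apoe, not among these calls, was called in both macrophage groups against microglia. Which cells the summed transcripts came from was not tested. The median mitochondrial share of a microglial cell was 6.91% and 9.56% in the control pairs. It was 13.3% and 12.7% in the day 3 pairs and 10.4% and 10.5% in those of day 7. The part of these 3 in the microglial results was not tested.

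At day 3 after the lesion, both TGF-beta receptors made up a smaller share of the transcripts of retinal microglia. The ligand, Smad7, Ski and Skil did not pass the test. The 120 control cells held 312 transcripts of Tgfbr1 and 129 of Tgfbr2, and the 81 day 3 cells held 233 and 122. Median totals were 1579 transcripts a cell in control and 2742 at day 3, and amounts per cell were not tested. Tgfbr1, the type I receptor kinase, stood at 1272 CPM in control pair P1 and 1557 in P2, and at 849.8 and 642 in the 2 pairs of day 3. The 2 day 3 pairs were below both control pairs, and this held for single libraries too, at 1100 to 1624 CPM (median 1451) in the 4 control libraries and 518 to 1078 (median 676) in the 4 of day 3. Tgfbr1 fell by 0.92 on the log2 scale (SE 0.21, 1.90-fold lower), from 1414 ± 202 to 746 ± 147 CPM (mean ± SD, n = 2 pairs), with an adjusted p of 0.00353 in edgeR's quasi-likelihood test. Tgfbr2, the ligand-binding type II receptor, stood at 705 and 564 CPM in the control pairs and at 374 and 371 at day 3. Its day 3 pairs were nearly equal and lay below both control pairs, and single libraries ran from 559 to 707 CPM in control and from 186 to 423 at day 3. Tgfbr2 fell by 0.71 (SE 0.25, 1.64-fold lower), with an edgeR adjusted p of 0.0418. These were the 2 of 6 tested pathway genes that passed, both lower, where 22.5% of the 3408 genes tested were called, 10.5% of them lower. The Tgfbr1 call was lost without control pair P2 (log2 -0.70), without day 3 pair P2 (-0.67) and in DESeq2 (adjusted p = 0.0520), which makes 3 of its 14 alternatives. Among the 14, the setting of all annotated cells also sums dendritic cells and the joint class (82 and 46 cells at day 3). Control had few such cells (2 of the joint class), so this setting does not test microglia alone. The Tgfbr2 call was lost without any 1 of the 4 pairs (edgeR adjusted p = 0.248 without control P1, 0.0811 without control P2, 0.198 without day 3 P1 and 0.217 without day 3 P2), in DESeq2 (adjusted p = 0.275), without the filter on low counts (0.449) and for cells that the authors' signature also named microglia (0.0637), which makes 7 of its 14 alternatives. Over wells with at least 1000 transcripts and at most 25% mitochondrial both calls stood (Tgfbr1 -0.94, edgeR adjusted p = 0.00320, and Tgfbr2 -0.83, adjusted p = 0.0222). This filter kept 30 and 82 cells of the control pairs and 28 and 43 of the day 3 pairs. Its mitochondrial limit lies above the median share of each of these pairs, so the part of that share was not tested.

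**Figure D1:**
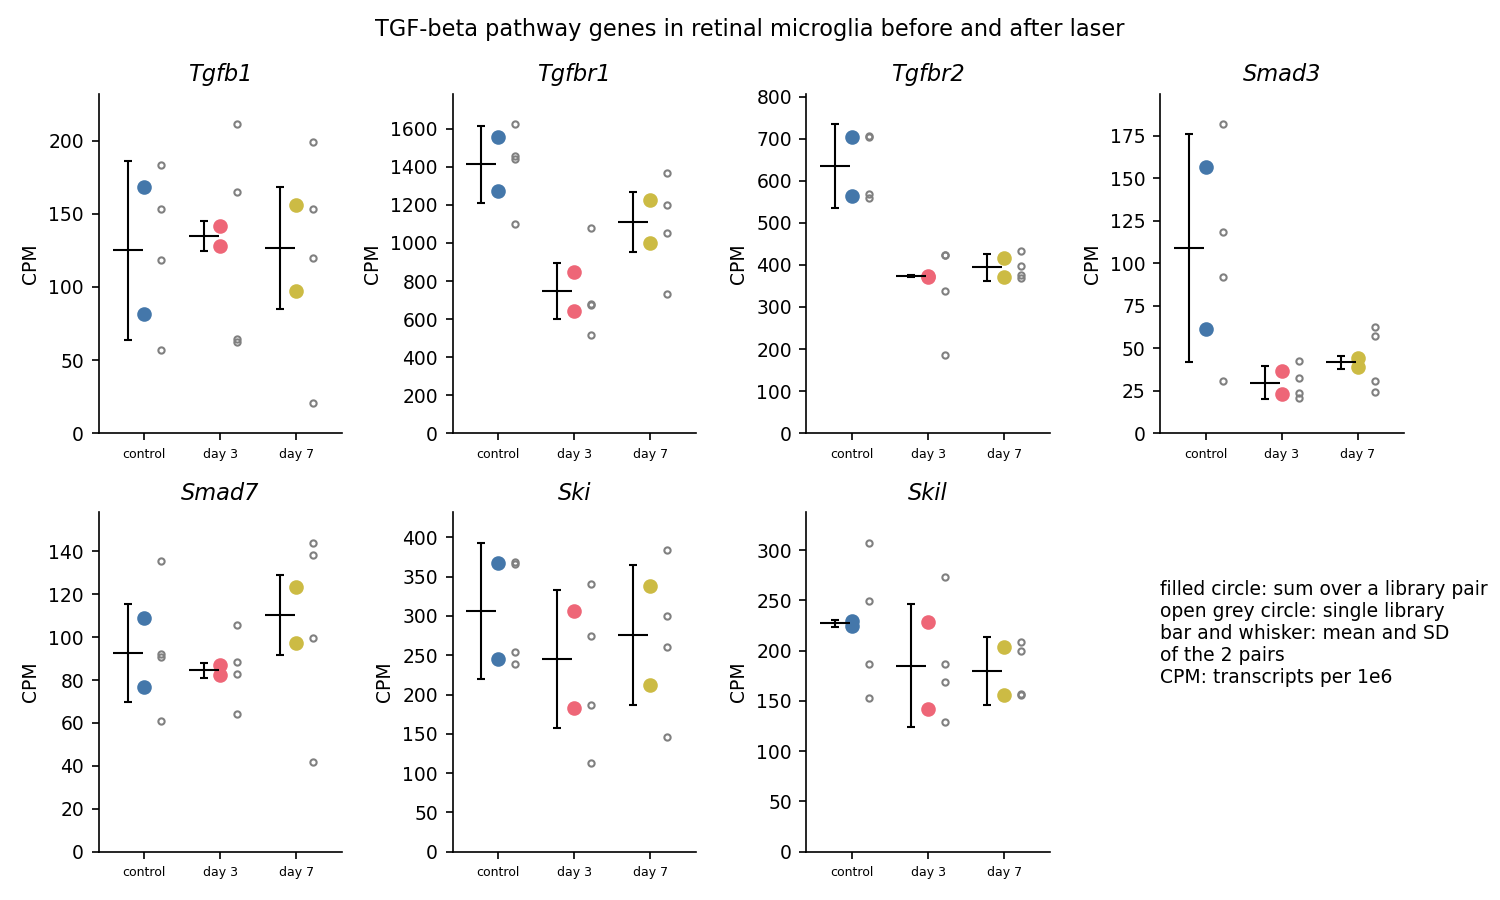
Transcripts per 1000000 (CPM) of the 7 TGF-beta pathway genes in retinal microglia without a lesion and 3 and 7 days after laser, 1 panel a gene; filled points are library pairs, open grey points single libraries, and bars with whiskers the mean ± SD of 2 pairs. Both Tgfbr1 and Tgfbr2 have day 3 pairs (642 to 849.8 and 371 to 374) below their control pairs (1272 to 1557 and 564 to 705), while the pairs of Tgfb1 and Ski overlap at all 3 times.

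Smad3, the receptor-activated transducer, was too sparse in microglia to pass the filter on low counts. It gave 61.3 and 156 CPM in the control pairs, 36.5 and 22.9 at day 3, and 39.0 and 44.2 at day 7. Its highest value was the P2 control pair, and both control pairs lay above all 4 pairs after the lesion. These values rest on 27 control transcripts, 9 of day 3 and 11 of day 7. Without the filter, Smad3 had a log2 difference of -1.94 (SE 0.64) at day 3, with an edgeR adjusted p of 0.0556, and of -1.45 (SE 0.61) at day 7, with an adjusted p of 0.762. When control pair P1 or day 3 pair P1 was left out, Smad3 passed the filter and the test at day 3 (log2 -2.40 and -2.29). Without day 3 pair P2 it passed the filter but not the test (-1.64). Without control pair P2, which held 23 of the 27 control transcripts, it did not pass the filter and could not be tested.

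The ligand and the inhibitors gave no call after the lesion. Tgfb1 stood at 168.5 and 81.6 CPM in the control pairs, 128 and 142 at day 3, and 156 and 97.3 at day 7. Its control pairs spanned all other values, and its day 3 log2 difference of 0.30 had a 95% interval from -0.57 to 1.18 (edgeR adjusted p = 0.656). Smad7, itself a target of the pathway that shuts it off, gave 76.6 and 109 CPM in control, 82.2 and 87.0 on day 3, and 124 and 97.3 on day 7. Its pairs overlapped control at both times, with an interval from -1.07 to 0.74 at day 3. Ski, the co-repressor of Smad3, gave 368 and 245 CPM in control, 183 and 307 on day 3, and 338 and 212 on day 7. Ski differed more between the 2 pairs of each time than between times, with an interval from -0.84 to 0.49 at day 3. Skil, the second co-repressor, gave 229.8 and 224 CPM in control, 228 and 142 on day 3, and 156 and 204 on day 7. Its day 7 pairs were both under control, without a call (log2 -0.32, SE 0.35, edgeR adjusted p = 0.776).

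At day 7 the 2 receptors stood apart from each other in where they lay. Tgfbr1 gave 1224 and 1000.1 CPM at day 7, above both day 3 pairs and under both control pairs. Its log2 difference was -0.32 from control (SE 0.21, edgeR adjusted p = 0.529, interval -0.73 to 0.09) and 0.60 from day 3 (SE 0.21, adjusted p = 0.0764, interval 0.18 to 1.02), so neither passed the threshold. Tgfbr2 gave 416 and 372 CPM at day 7, under both control pairs and overlapping the day 3 pairs. Its log2 difference was -0.62 from control (SE 0.25, edgeR adjusted p = 0.231, interval -1.12 to -0.13) and 0.09 from day 3 (interval -0.40 to 0.58). Whether the 2 receptors differ in this respect was not tested. Among the 6 pathway genes tested, 0 were called at day 7 against control, where 1.82% of all genes were (1.38% higher and 0.44% lower), and 0 against day 3, where 9.45% were (4.49% higher and 4.96% lower). At an unadjusted p under 0.05 there was 1 in each edgeR comparison, Tgfbr2 against control and Tgfbr1 against day 3, and DESeq2 also called 0 in each. All 3 time comparisons share pairs with each other.

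The share of microglia with at least 1 transcript gave the same order of means for Tgfbr1. With each cell thinned to 1000 transcripts, Tgfbr1 was found in 73.3% of control microglia (95% Wilson interval 64.8% to 80.4%), 48.1% at day 3 (37.6% to 58.9%) and 57.5% at day 7 (48.3% to 66.2%). The day 3 interval lay wholly under that of control. Without thinning the shares were 87.5%, 70.4% and 84.1%, and the medians were 1579, 2742 and 2207 transcripts a cell. Tgfbr2 was found in 40% of thinned control microglia (31.7% to 48.9%), 28.4% at day 3 (19.7% to 39.0%) and 28.3% at day 7 (20.8% to 37.2%), with intervals that overlap. Its unthinned shares of 55%, 58.0% and 58.4% went the other way. In dendritic cells of day 3, the class with the lowest Tgfbr1 level (median of 7465 transcripts a cell), 24.4% of thinned cells had one. These intervals cover counting error only, and cells of 1 library are not replicates.

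**Figure D2:**
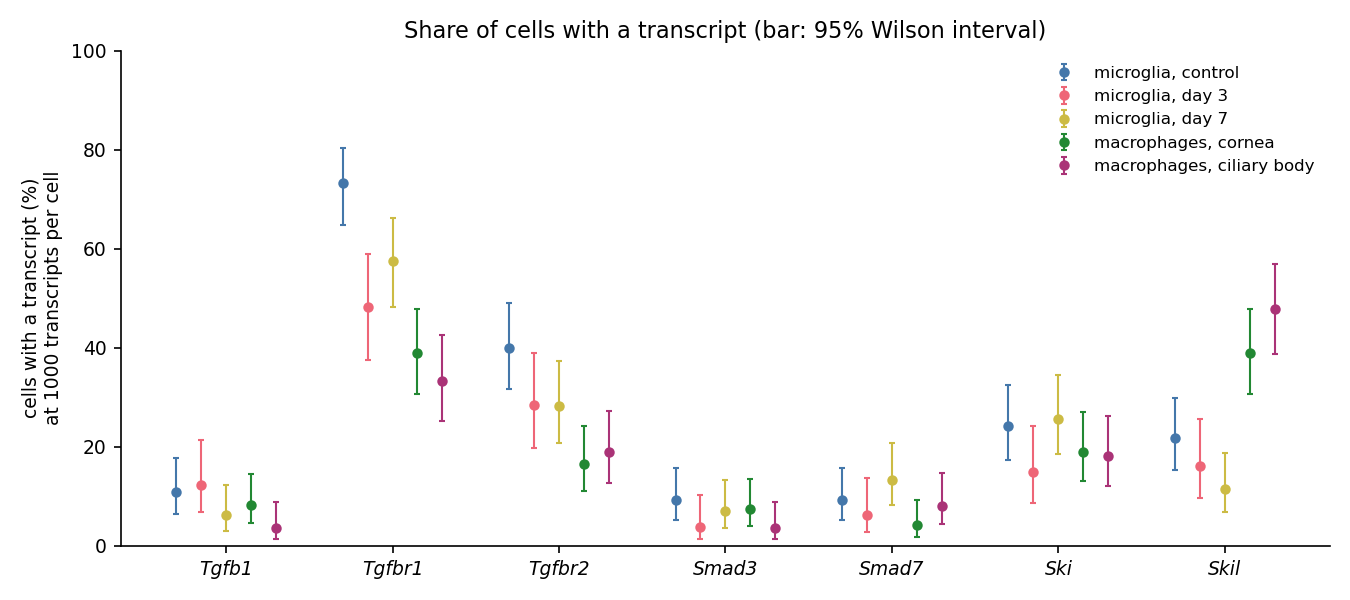
Percent of cells with at least 1 transcript of each pathway gene after thinning each cell to 1000 transcripts, for microglia at 3 times and macrophages of cornea and ciliary body; whiskers are 95% Wilson intervals. Tgfbr1 is found in 73.3% of control microglia and 33.3% to 57.5% of the cells in the other 4 groups, and Skil in 11.5% to 21.7% of microglia but 38.8% and 47.7% of macrophages.

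Microglial clusters of the authors' annotation differed in Tgfbr1, given here as a description because the clusters were built from the same cells and genes. Cluster 6 held 39 of the 81 microglia of day 3 but 1 of the 120 in control and 7 at day 7. Its day 3 cells had 509.7 CPM of Tgfbr1 (100 transcripts over 39 cells). Other day 3 cells gave 1053 CPM in cluster 3 (12 cells), 1657 in cluster 4 (9 cells), 783 in cluster 5 (15 cells), 1303 in cluster 14 (3 cells) and 0 in cluster 11 (3 cells), so cluster 6 was the lowest but for cluster 11. In control, clusters 3, 4 and 5 gave 1496, 1400 and 1599.5 CPM, so that cluster 4 of day 3 was not below cluster 4 of control. Cluster 11, mostly of day 7, gave 726 CPM in 21 cells of that day, and cluster 14 gave 1126 in 15 cells. Each value pools the pairs, only 1 for the day 3 cells of clusters 11 and 14, and has no replicate error. Tgfbr2 had another order at day 3, with 352 CPM in cluster 6, 361 in cluster 3, 447 in cluster 5, 687 in cluster 4 and 0 in clusters 11 and 14. Control cells of cluster 4 gave 709 CPM of Tgfbr2.

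Genes known to need TGF-beta signalling in microglia also fell after the lesion. Of 21 such genes tested at day 3, 15 fell and 2 rose, where 10.5% of all genes were lower and 11.9% higher, with a median log2 difference of -1.22 against 0.03 over all genes. DESeq2 called 12 of the 21. The purinergic receptor P2ry12, by which microglia sense released nucleotides, fell from 3005 and 3340 CPM to 786 and 912, a log2 change of -1.87 (SE 0.19, edgeR adjusted p = 1.11e-06). Gpr34, a lysophosphatidylserine receptor, changed by -1.97 (SE 0.21), P2ry13 by -1.70 (SE 0.22), and the adhesion receptor Adgrg1 by -2.19 (SE 0.36). The 2 that rose, named after their values were seen, were Fcrls (1.10, SE 0.23) and the transcription factor Spi1 (1.26, SE 0.41). At day 7, 6 of 21 were lower than control and 0 higher (median -0.60), where 0.44% of all genes were lower and 1.38% higher. They were led by P2ry12 (-1.21, SE 0.19, adjusted p = 0.00205) and P2ry13 (-1.16, SE 0.21), Tmem119 (-1.15, SE 0.22) and Jun (-1.60, SE 0.31). From day 3 to day 7, 3 of the 21 were called, 2 higher and 1 lower, and DESeq2 called 1. Over all genes, 4.49% were higher and 4.96% lower. Gpr34 (1.04, SE 0.21) and P2ry12 (0.65, SE 0.19) were higher and Fcrls lower (-0.97, SE 0.22). The P2ry12 rise lost its call in 8 of 14 alternatives, among them DESeq2 and the omission of any 1 of the 4 pairs. At day 7 against control, P2ry13 and Jun lost theirs without day 7 pair P1 (adjusted p = 0.0975 and 0.117) and Tmem119 without day 7 pair P2 (0.142). At day 7 against day 3, Fcrls lost its call without day 7 pair P1 (0.0669) and in 2 other of its 14 alternatives, DESeq2 and all annotated cells.

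Calls in other parts of the pathway in microglia did not share 1 direction. Pmepa1, a TGF-beta target that dampens the pathway by binding Smads, fell from 1241 and 1196 CPM to 694 and 659.9 at day 3 (log2 -0.82, SE 0.21, edgeR adjusted p = 0.00648), and stood at 625 and 584 at day 7 (-0.97, SE 0.21, adjusted p = 0.0153). It was below both control pairs in all 4 pairs after the lesion. The day 3 call was lost without either day 3 pair (adjusted p = 0.0550 without P1 and 0.0918 without P2), and the day 7 call without either day 7 pair (0.123 and 0.133). Dab2, an endocytic adaptor that binds TGF-beta receptors and Smads, rose from 15.3 and 20.4 CPM to 137 and 115 at day 3 (2.75, SE 0.72, edgeR adjusted p = 0.00787). It was lower at day 7 than at day 3 (-2.06, SE 0.61). Its control level lay near the 14.1 CPM to which 3 transcripts over the control group amount. The day 3 level of Dab2 rests on 40 transcripts and that of day 7 on 8. Leaving out control pair P2 or day 3 pair P2 ended the rise of Dab2 (0.0590 and 0.0831), and leaving out any 1 of the 4 pairs ended the later difference (0.0683 to 0.229). DESeq2 gave no day 3 call for Pmepa1 (adjusted p = 0.0919) or Dab2 (0.108), and Pmepa1 had none without the filter on low counts (edgeR adjusted p = 0.145). These were the 2 of 10 inhibitors and ubiquitin ligases called at day 3, near the 22.5% of all genes, and DESeq2 called 0 of the 10.
Among 6 general TGF-beta response genes at day 3, where 22.5% of all genes were called, the secreted matrix protein Tgfbi rose (2.58, SE 0.62, edgeR adjusted p = 0.0135) and the AP-1 factor Junb fell (-1.57, SE 0.33, adjusted p = 0.00178). Tgfbi was uneven, at 164 CPM in day 3 pair P1 and 529.5 in pair P2 against 107 and 40.8 in control, and its call was lost without day 3 pair P2 (1.44, adjusted p = 0.126). The small GTPase Rhoa, in the branch that does not run through Smads, rose at day 3 (1.44, SE 0.30) as 1 of 6 genes tested. At day 7, Tgfbi (-2.24, SE 0.56) and Rhoa (-1.08, SE 0.28) were lower than at day 3. Without day 7 pair P1 both lost this call (0.137 and 0.230), as did Tgfbi without day 3 pair P2 (0.315) and Rhoa without day 3 pair P1 (0.0594), and over all 14 alternatives the Rhoa call was lost in 6, DESeq2 among them. No call was made at day 3 among 6 genes of latency and activation, 1 other receptor and 5 other Smads and partners, and none of the other TGF-beta family ligands passed the filter. At an unadjusted p under 0.05, edgeR gave 2 of the 6 latency genes, the 1 receptor and 0 of the 5 Smads and partners, and DESeq2 called 0 of each. Summed monocyte markers stood at 54.8 and 468 CPM in the day 3 pairs, against 45.9 and 74.8 in control, so pair P2 was high in both Tgfbi and these markers, and their part in the result was not tested.

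In macrophages outside the retina, both receptors made up a smaller share of transcripts than in control microglia, and Skil a larger one. These comparisons set class and tissue together, so the 2 cannot be told apart, and for the ciliary body neither can the title prefix, since its pairs are P3 and P4. In corneal macrophages Tgfbr1 gave 357 CPM in pair P2 and 646 in pair P5, and in ciliary body macrophages 447 in P3 and 435 in P4, against 1262 and 1628 in control microglia of the same table. All 4 macrophage pairs lay below both microglial pairs. Tgfbr1 was lower in cornea by a log2 change of -1.31 (SE 0.33, edgeR adjusted p = 0.00635) and in ciliary body by -1.43 (SE 0.33, adjusted p = 0.00364). These fitted changes are smaller than the ratios of CPM because normalization by TMM scaled the totals by 0.846 to 0.944 in macrophages and by 1.15 to 1.23 in microglia. The corneal call of Tgfbr1 was lost without corneal pair P2 (-0.79, adjusted p = 0.170) or control pair P2 (-0.94, adjusted p = 0.100), and the ciliary body call without control pair P2 (-1.10, adjusted p = 0.0545).

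Tgfbr2 gave 179 and 223 CPM in the corneal pairs and 204 and 150.2 in the ciliary body pairs, against 693 and 625 in microglia. Its macrophage pairs lay far under both microglial pairs. The log2 change was -1.48 in cornea (SE 0.31, edgeR adjusted p = 0.00201) and -1.60 in ciliary body (SE 0.30, adjusted p = 0.000989). Skil went the other way, at 591 and 544 CPM in cornea and 516 and 759 in ciliary body, against 262 and 227 in microglia. The lowest macrophage pair of Skil was above the highest microglial pair. It was higher by 1.46 in cornea (SE 0.31, edgeR adjusted p = 0.00253) and by 1.68 in ciliary body (SE 0.31, adjusted p = 0.000807). Tgfbr2 and Skil kept these calls under all 12 alternatives in both compartments. Within the shared prefix P2, corneal macrophages had 357 CPM of Tgfbr1 against 1628 in microglia, 179 against 625 of Tgfbr2, and 591 against 227 of Skil.

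**Figure D3:**
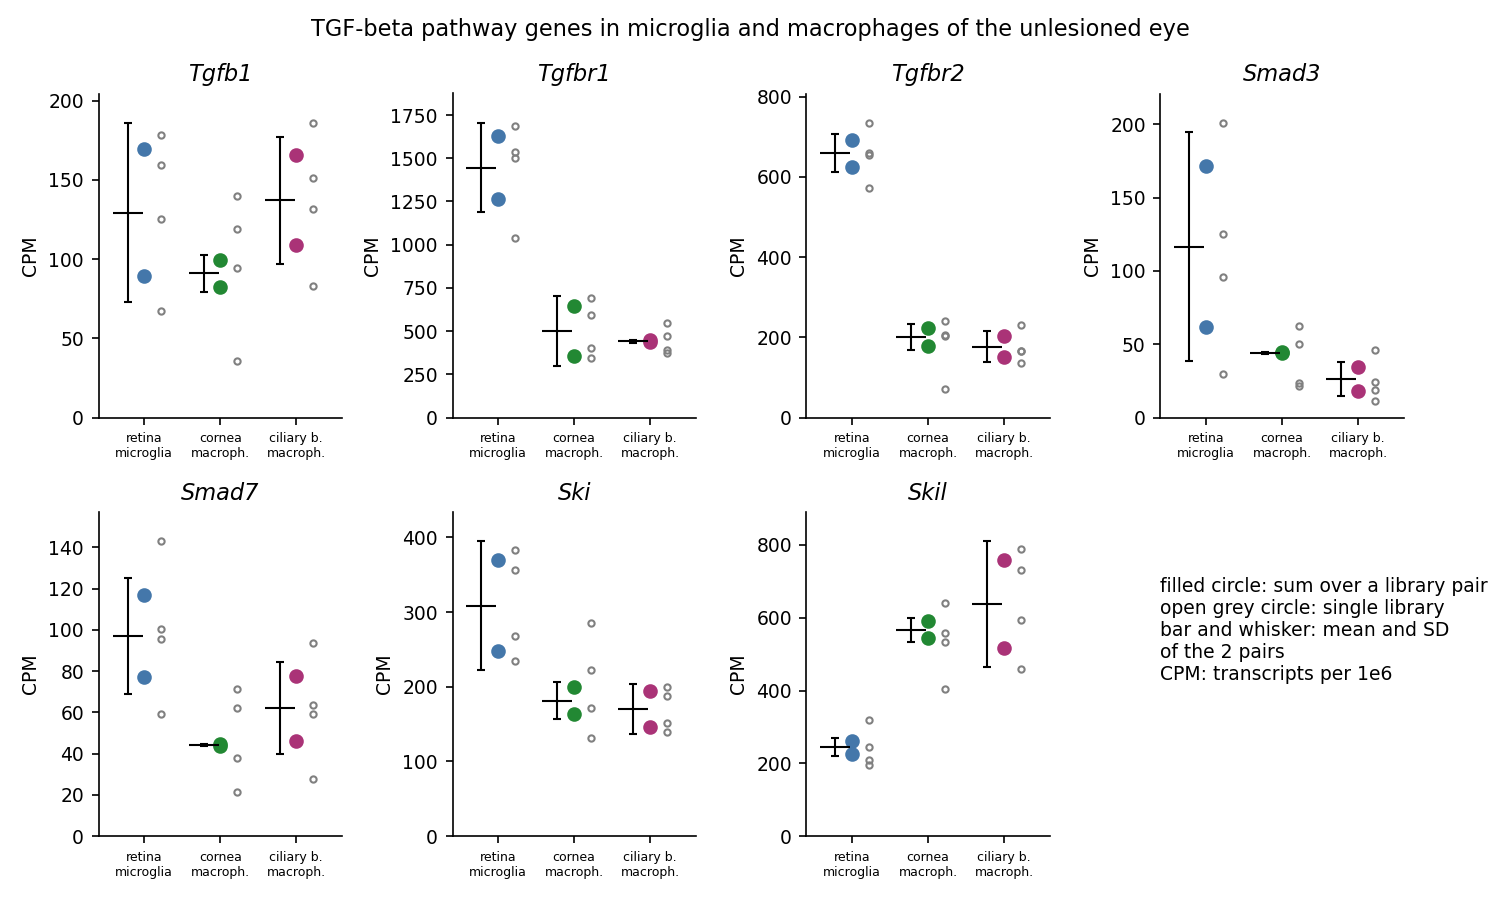
Transcripts per 1000000 (CPM) of the 7 pathway genes in control retinal microglia and in macrophages of cornea and ciliary body, 1 panel a gene; filled points are library pairs, open grey points single libraries, and bars with whiskers the mean ± SD of 2 pairs. Tgfbr1 and Tgfbr2 are low in all 4 macrophage pairs (357 to 646 and 150.2 to 223) and Skil is high (516 to 759, against 227 to 262 in microglia).

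Smad3 gave 61.6 and 172 CPM in microglia, 44.7 and 43.7 in corneal and 34.6 and 18.1 in ciliary body macrophages. All macrophage pairs lay below the microglial pairs, which themselves differed widely. The log2 change was -2.10 in ciliary body (SE 0.56, edgeR adjusted p = 0.0100), and the corneal difference of -1.35 (SE 0.55) did not pass (adjusted p = 0.0706). The ciliary body call was lost without control pair P2 (-0.85, adjusted p = 0.602), without ciliary body pair P4 (adjusted p = 0.130) and in DESeq2 (0.103), and the corneal difference passed without control pair P1 (0.0150). Ski gave 369 and 247 CPM in microglia, 164 and 199 in cornea, and 146 and 194 in ciliary body. Its macrophage pairs all lay lower, yet the fitted differences of -0.49 (SE 0.32, edgeR adjusted p = 0.260) and -0.51 (SE 0.31, adjusted p = 0.236) did not pass. With sums thinned to the smallest, Ski was called lower in cornea (-1.55, edgeR adjusted p = 0.00970) and ciliary body (-1.50, adjusted p = 0.0108). With single libraries it was called lower in ciliary body (-0.71, edgeR adjusted p = 0.0437). The thinned sums rest on a single random draw, and the fit of single libraries counts the 2 libraries of a pair as replicates. Smad7 gave 76.9 and 117 CPM in microglia, 44.7 and 43.7 in cornea and 46.2 and 77.7 in ciliary body, with differences of -0.99 (SE 0.51) and -0.42 (SE 0.46) that did not pass. Tgfb1 overlapped between microglia (169 and 89.3 CPM), cornea (99.3 and 82.6) and ciliary body (165 and 109). Its differences of -0.17 (interval -1.07 to 0.73) and 0.48 (interval -0.35 to 1.31) did not pass.

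In all, 3 of 7 pathway genes were called in cornea, 1 higher and 2 lower, where 33.1% of 4705 genes were called. In ciliary body 4 of 7 were called, 1 higher and 3 lower, where 29.2% of genes were. Between corneal and ciliary body macrophages 0 of 7 were called (3.55% of all genes, 2.49% higher and 1.06% lower), with 0 at an unadjusted p under 0.05 in edgeR and 0 called by DESeq2. The difference of cornea from ciliary body was -0.23 for Skil (interval -0.77 to 0.31), 0.12 for Tgfbr1 (-0.51 to 0.76) and 0.12 for Tgfbr2 (-0.48 to 0.73). These intervals hold no difference as large as those from microglia. The macrophage markers Ms4a7, Pf4 and Mrc1 were higher in both macrophage groups than in microglia, with the border macrophage list at 1897 and 1603 CPM in cornea, 1313 and 824 in ciliary body and 123 and 163 in microglia.

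**Figure D4:**
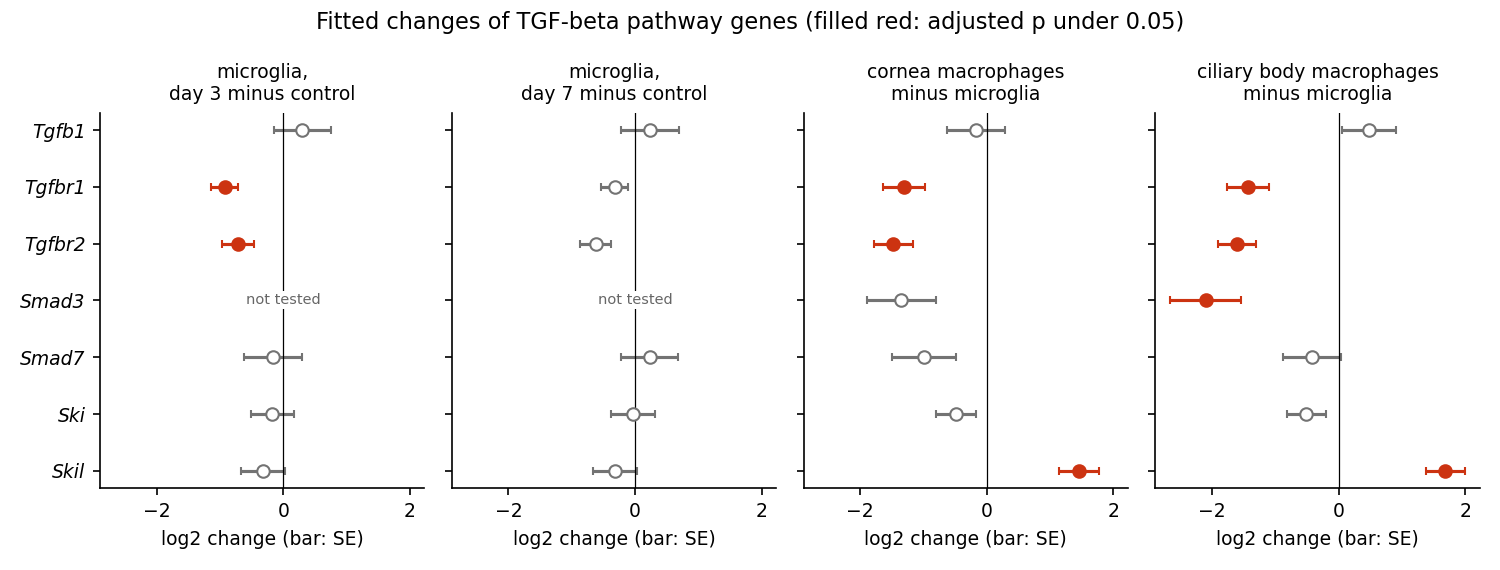
Log2 differences (points) with 1 SE (whiskers) of the pathway genes from edgeR in 4 comparisons: microglia of day 3 and day 7 against control, and macrophages of cornea and ciliary body against control microglia; filled red points have an adjusted p under 0.05, and Smad3 was not tested in the retinal comparisons. Tgfbr1 and Tgfbr2 are lower and called at day 3 (-0.92 and -0.71) and in both macrophage groups, and Skil is higher only in the macrophage comparisons (1.46 and 1.68) among these 4.

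The wider pathway moved in opposite ways in these macrophages. Of the 21 tested genes known to need TGF-beta in microglia, 18 were lower and 1 higher in corneal macrophages (median -3.33 against 0.05 over all genes), and 16 lower and 1 higher in ciliary body (median -2.61 against -0.03). Over all genes, 15.8% were lower in cornea and 12.6% in ciliary body. P2ry12 stood at 104 and 63.1 CPM in cornea and 104 and 122 in ciliary body, against 3219 and 3417 in microglia. Olfml3 and Tmem119 were lower by log2 changes of -4.32 and -3.76 in cornea and -3.47 and -3.60 in ciliary body (SE 0.31 to 0.34). Sall1, a transcription factor specific to microglia among macrophages, was not detected in either corneal pair and was at least 82.6-fold lower there (floor of 3 transcripts over the group). Sall1 and the single exceptions, named after their values were seen, are outside the naming rule: Jun was higher in cornea (0.96, SE 0.35) and Spi1 in ciliary body (0.97, SE 0.35). Several of these genes are also the markers that set microglia apart, so they are not independent of the class.
General TGF-beta response genes were higher instead, 9 of 13 in cornea (median 2.93, 17.3% of all genes higher) and 10 of 13 in ciliary body (median 2.47, 16.6% higher), with 0 lower in either. Cdkn1a, a brake on the cell cycle, stood at 77.0 and 109.9 CPM in microglia, 1497 and 1858 in cornea (4.32, SE 0.40) and 1179 and 2130 in ciliary body (4.36, SE 0.40). Tgfbi stood at 596 and 719 CPM in cornea and 300.2 and 257 in ciliary body, against 108 and 48.1 in microglia. Bhlhe40 (3.32, SE 0.45, and 3.83, SE 0.43), the growth arrest gene Gadd45b and, in ciliary body, the helix-loop-helix regulator Id2 (2.99, SE 0.37) were also higher. Gadd45b had 1 transcript in microglia, for a ratio of 62.0 in cornea (95% counting interval 10.9 to 2470.02) and 161 in ciliary body (28.9 to 6398). Cdkn1a, Gadd45b, Bhlhe40, Junb and Jun are also known as genes that handling and stress switch on within a short time. What part this has in these results, or for Junb and Jun in those after the lesion, was not tested. Between the 2 macrophage groups, Tgfbi was higher in cornea (1.17, SE 0.30, edgeR adjusted p = 0.0420) and Gadd45b lower (-1.40, SE 0.30, adjusted p = 0.0135), as was Fcrls (-1.41, SE 0.35, adjusted p = 0.0380), each a single call of its direction in its list. All 3 calls were lost without corneal pair P5 (0.117, 0.149 and 0.165), and those of Tgfbi and Fcrls also without ciliary body pair P3 (0.0534 and 0.346), and that of Tgfbi without ciliary body pair P4 (0.142). DESeq2 did not call Tgfbi or Fcrls here, and with thinned sums none of the 3 was called.

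Genes of latency and activation gave calls in both directions. Of 9 tested, 4 were higher and 2 lower in cornea, where 17.3% of all genes were higher and 15.8% lower, and 3 were higher and 2 lower in ciliary body (16.6% and 12.6% of all genes). DESeq2 called 3 of the 9 in cornea and 4 in ciliary body. Integrin Itgb5, a partner of alpha v integrins in releasing the ligand, was lower (-2.16, SE 0.31, edgeR adjusted p = 9.57e-05 in cornea, and -1.76, SE 0.29, adjusted p = 0.000363 in ciliary body). Integrin Itgb3 was lower at ratios of 0.0345 and 0.0652. Mmp14, a membrane protease, was higher (1.68, SE 0.50, and 2.25, SE 0.47), as was Plau, the urokinase protease (ratios 8.10 and 4.78). Each of these ratios of Itgb3 and Plau rests on 1 to 3 transcripts in 1 of the 2 groups compared, so it is imprecise. Nrros, which tethers latent TGF-beta1 on microglia and macrophages, was also higher in both (0.88, SE 0.32, edgeR adjusted p = 0.0435 in cornea, and 1.31, SE 0.31, adjusted p = 0.00444 in ciliary body). Nrros stood at 169 and 172 CPM in microglia, 293 and 248 in corneal and 339 and 358 in ciliary body macrophages. Plau in ciliary body and Nrros in cornea are outside the naming rule and were added after their values were seen. The call of Itgb3 was lost without corneal pair P5 (edgeR adjusted p = 0.137) and without either ciliary body pair (0.0627 and 0.0869), and that of Mmp14 in cornea without control pair P2 (0.145) and in DESeq2 (0.0818).
For the lists that follow, the share of all genes called was 33.1% in cornea and 29.2% in ciliary body. Of 16 inhibitors and ubiquitin ligases, 3 were called in cornea and 2 in ciliary body. Dab2 (5.03, SE 0.46, and 4.24, SE 0.48) and the Smad co-repressor Tgif1 (2.52, SE 0.37, and 2.56, SE 0.37) were higher in both groups. Pmepa1 was lower in cornea (-0.92, SE 0.28), a call lost without any 1 of the 4 pairs (edgeR adjusted p = 0.114 to 0.242). Of 7 other Smads and partners, only Runx3, a partner of Smads in leukocytes, was called in each group, higher by 2.34 (SE 0.49, lost with thinned sums at an adjusted p of 0.0790) and 2.46 (SE 0.47). Of 4 other receptors, the co-receptor Eng was lower in both groups (ratio 0.129 in cornea, and -2.60, SE 0.77, in ciliary body), and the BMP receptor Bmpr2 in cornea (-1.30, SE 0.41). The corneal ratio of Eng rests on 1 to 3 transcripts in 1 of the 2 groups compared, so it is imprecise. Eng lost its call without control pair P1 or either macrophage pair in both groups (adjusted p = 0.109 to 0.359), and Bmpr2 without control pair P2 or either corneal pair (0.137 to 0.253), and DESeq2 called neither gene (0.128 to 0.151). Gdf15, the 1 other ligand of the family tested, had no transcript in microglia and was at least 3.97-fold higher in cornea and 5.22-fold higher in ciliary body, and the corneal call was lost without control pair P2 (0.0624). Tab2, the 1 of 6 tested genes of the non-Smad branch called in each group, was lower by -0.94 (SE 0.33) and -0.97 (SE 0.32). It lost both calls without any 1 pair of the fit that bears on it and in DESeq2 (adjusted p = 0.190 and 0.165).

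Across the annotated classes, the receptors had their highest means in microglia. The classes come from clustering these same cells, so the order is a description with no test. The joint class is left out of the order in cornea (5 cells) and control retina (2 cells), where 3 transcripts amount to 191 and 999 CPM. Tgfbr1 ran from 1414 CPM in control microglia over 1112 at day 7 and 746 at day 3 to corneal (502) and ciliary body macrophages (441). It was lower still in the joint class of monocytes, lymphocytes and granulocytes, at 267 in ciliary body, 239.5 at day 3 and 161 at day 7, and in retinal dendritic cells, at 242 at day 7 and 157 at day 3. Neighbours in this order overlapped in their pairs from day 3 microglia to ciliary body macrophages and among the last 5. Smad3 was not detected in dendritic cells of day 3 (82 cells, which allows up to 4.83 CPM) or day 7 (26 cells, up to 22.0 CPM), and gave 67.0 CPM in the joint class of the ciliary body. Skil had its highest means in the macrophages of ciliary body (638 ± 172) and cornea (567 ± 33.0), then in the joint class of the ciliary body (439). Tgfb1, which many leukocytes make, had its highest mean in the joint class of day 3 (212 ± 15.1 CPM) and its lowest in dendritic cells of day 3 (66.5 ± 12.6). Ski ranged from 306 CPM in control microglia to 76.2 in dendritic cells of day 3, and Smad7 from 127 in the joint class of the ciliary body to 44.2 in corneal macrophages.

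**Figure D5:**
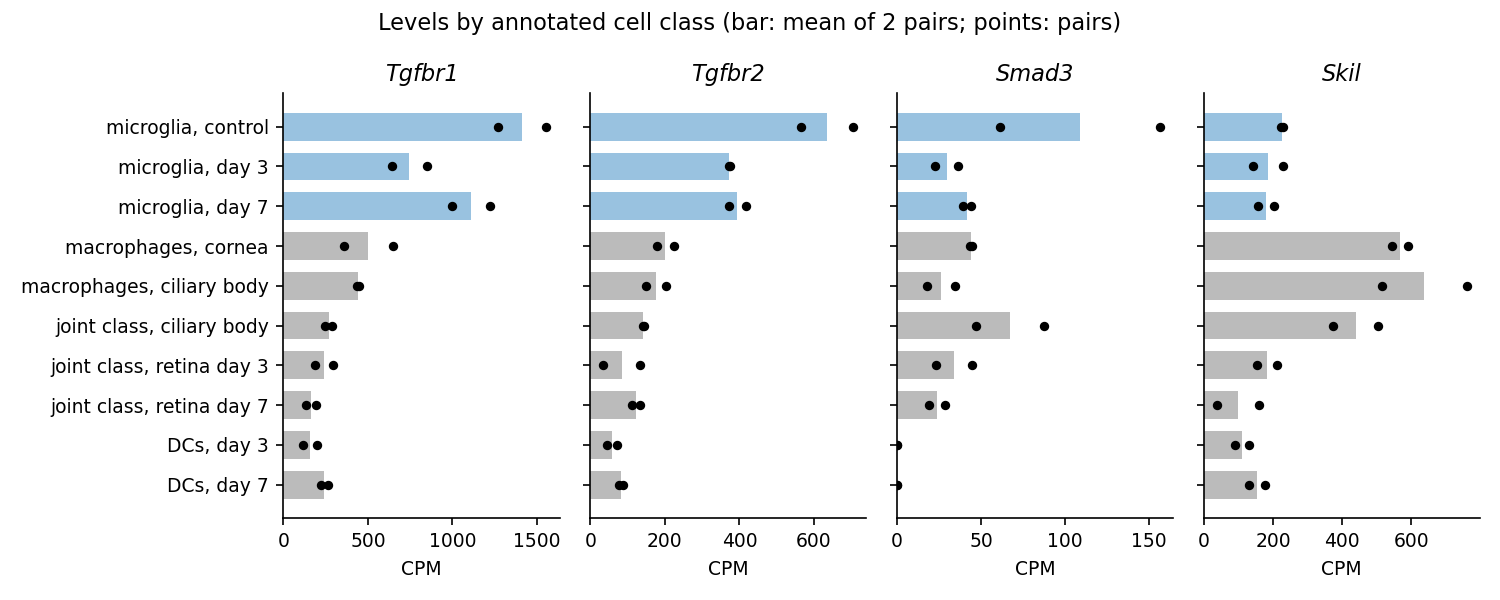
Transcripts per 1000000 (CPM) of Tgfbr1, Tgfbr2, Smad3 and Skil in 10 annotated classes of retina, cornea and ciliary body; bars are means of library pairs and points the single pairs. Tgfbr1 and Tgfbr2 are highest in control microglia (1414 and 634), Smad3 is at 0 in both groups of dendritic cells, and Skil is highest in macrophages (567 and 638).

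The genes whose levels ran most like each pathway gene were ranked among 3930 genes over 20 sums of class, group and pair. Sums of different classes can share libraries, and control microglia were taken from the retina table only. The correlations describe these sums and have no test. Tgfbr1 ran with Tmem119 (Pearson r 0.969), P2ry12 (0.948) and the complement gene C1qc (0.941). Tgfbr2 ran with Tanc2 (0.965), Rhob (0.950) and Tmem119 (0.942). Skil had a different set, the adhesion gene Icam1 (0.945), the activation marker Cd83 (0.930) and Gm43430 (0.909). Ski ran with Gapvd1 (0.896), Vsir (0.862) and Pde3b (0.858). Tgfb1 and Smad7 had weaker matches, with the highest at 0.752 for Rnf149 and 0.763 for Tnrc6b.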

How the data were processed

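Single-cell transcript levels were measured in 20 libraries, and values from the 2 tables of annotated cells were used. The authors deposited these as estimated counts of transcripts per gene and cell, not normalized, and deposited gene symbols and wells (other) in the library tables. Reads were aligned with BWA 0.6.2-r126, per the submitters' processing notes. The sources used here give no build, annotation or counting method. The annotated tables carry no gene names, so their rows were named by exact equality with a gene of the library tables, which named 19705 rows of the eye table and 19988 genes of the retina table, with each of the 7 pathway genes matched to 1 row. Cell classes are the authors' own, and doublets were not called again.

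Transcripts were summed over the cells of a class in each pair of a group's libraries with the same title prefix, rounded to whole numbers, and tested with edgeR 4.0.16 (quasi-likelihood, filterByExpr, TMM; R 4.3.3) in 1 fit of the 3 retinal groups (3408 genes) and 1 of the 3 compartments (4705 genes). P-values were adjusted by Benjamini-Hochberg over all genes tested, with a threshold of 0.05. The script was tested on simulated data. CPM are per 1000000 transcripts of the sum. The SE comes from the F statistic, and 95% intervals use the normal approximation. Group sums with 1 to 3 transcripts gave ratios with exact counting intervals, and sums of 0 gave bounds at 3 transcripts per group. The genes and lists were chosen with earlier results of these data known. The text names the 7 pathway genes and, from each wider list and comparison, up to 4 called genes with the smallest adjusted p. Likeness used log2(CPM + 10) over sums of at least 10 cells and genes with a mean of at least 50 CPM. Same-numbered prefixes gave a correlation of P1 minus P2 differences between retinal groups of -0.05 to 0.16, so the prefixes were not taken to pair samples.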

Additional observations from a re-analysis of the deposited data

Results flagged for a closer look

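In a check of 75 sets of single-library values for a value far from the others, 1 was found, where chance gives about 1 in 20. Tgfbr2 in retinal dendritic cells of day 7 stood at 123.1 CPM in 1 P2 library, against 68.3, 76.6 and 77.1 in the other 3. The high value rests on 2 transcripts in 4 cells.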

How the results depend on the processing

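Across the pathway genes, 471 values were recomputed under alternatives: 406 kept direction and side of the threshold, 39 changed sign without ever being called, 10 gained a call and 16 lost one, and none reversed a called direction. For day 3 against control, the 2 called genes became 0 in DESeq2, 1 without the low-count filter and 1 for microglia also named so by the authors' signature, and 0 to 2 with 1 pair left out. The setting of all annotated cells adds dendritic and joint-class cells to the retinal microglia, mostly after the lesion, so it does not test microglia alone. For day 7 against control, the count of 0 became 3 with all annotated cells and 1 with thinned sums (Tgfbr2). For day 7 against day 3, it became 1 (Tgfbr1) with all annotated cells, with single libraries and with wells passing a filter of 1000 transcripts and 25% mitochondrial. The fit of single libraries counts the 2 libraries of a pair as replicates, and thinned sums rest on a single random draw. With 1 pair left out, counts ran from 2 to 4 in cornea and from 2 to 4 in ciliary body, and a lone pair is then assumed to vary like the other groups. The replicate block by prefix gave 2, 0 and 0 genes in the 3 retinal comparisons, and changed no call. The prefix pairs share only a number. Thinned shares are given beside unthinned ones in the report.

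Over all genes, edgeR called 766, 62 and 322 in the retinal comparisons (day 3, day 7, day 7 against day 3), with ranges over alternatives of 227 to 1750, 27 to 754 and 66 to 414. It called 1558, 1372 and 167 in cornea, ciliary body and between them, with ranges of 724 to 1631, 719 to 1474 and 55 to 320. The highest counts against retinal control (1750 and 754) came with all annotated cells, a setting that mixes classes. The lowest count came from DESeq2 in the retinal comparisons and between the macrophages, and from thinned sums in cornea and ciliary body. The cause was not tested. Depth limits Smad3, Smad7 and Tgfb1 most, with 45 transcripts or fewer per microglial group.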
